A study of Mus musculus with 6 samples.

Results

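The zinc finger protein genes were examined in myotubes depleted of the long noncoding RNA H19. They were taken by symbol, as every feature of the deposited expression table with a symbol that begins with Zfp and a digit, Zkscan, Zscan, Zbtb, Zfhx, Zik, Zmym, Zc3h or Zcchc. This rule used no measured value and found 42 members among 3019 features, of which 2549 carried a gene symbol. No Zkscan or Zik gene was among them. The RNA came from C3H myoblasts, a line of mouse muscle precursor cells which fuse to multinucleated myotubes when serum is reduced. Both groups were the same line and were transfected at 40 h of differentiation, with a control siRNA in siCon and an siRNA against H19 in siH19. They were harvested 48 h later as day 4 differentiating myotubes, with 3 libraries in each group. The methods describe transfection in triplicate, and a single cell line stands for both conditions.

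The table holds 1 pooled log2 FPKM per group for each feature. FPKM relates the fragments of a transcript to its length and to sequencing depth, so that levels can be set side by side between genes. Because 1 value stands for 3 libraries, the spread between replicates, the depth of each library and the error of any value are unknown, and no test of a difference was run here. The authors' own test, a q value from Cuffdiff, was not used. Every one of the 3019 features carries the authors' own call of a change, so that genes without that call were not analysed here and even the smallest member difference is 0.33 on the log2 scale, against 0.31 over all features. A difference is always the siH19 value minus the siCon value in log2 FPKM, and a difference of 1.5-fold is used as a mark of size only. H19 itself stood at 11.20 in siCon and at 7.50 in siH19, which is 7.69% of its siCon level. Of 24 myotube marker genes, some of which share a feature, 14 features were listed, at 2.64 to 11.30 in siCon and all higher in siH19, with a median difference of 0.71. Of 7 fibroblast markers only Col1a1 was listed (4.81 in siCon, 5.22 in siH19), and no adipocyte, endothelial or macrophage marker was. In such cultures more myotubes and more RNA per myotube cannot be told apart, and the part of the marker difference in the values of the zinc finger genes was not tested.

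A zinc finger is a short protein fold held together by a zinc ion, which cysteines and histidines bind. In the C2H2 type, strings of fingers read DNA, and the domain at the start of the protein sets what is recruited there. A KRAB domain recruits Trim28 and the histone methyltransferase Setdb1, which silence chromatin. A BTB domain forms dimers and binds corepressors such as Bcor or the ubiquitin ligase scaffold Cul3, whereas a SCAN domain pairs related proteins with each other. CCCH and CCHC fingers mostly bind RNA. Several of these proteins act on imprinted genes, the class to which H19 and its neighbour Igf2 belong.

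More zinc finger genes were higher than lower in siH19. Of the 42 members 28 were higher and 14 lower, or 66.7% higher. Of all features 62.8% were higher and 37.2% lower, and of features with a symbol 60.1% and 39.9%. Past 1.5-fold, 15 members were higher and 3 were lower, where 37.4% of all features were higher and 16.9% lower by that fold, or 30.8% and 16.3% of those with a symbol. These counts depended on the scale. With a pseudocount of 1 FPKM 8 members were higher and 1 lower, and after subtraction of the median of all features, 0.45, 2 and 14. The 14 was fixed in advance, because every lower feature lies at least 0.31 below 0 and so passes 1.5-fold once 0.45 is subtracted. All of the 37.2% lower features pass in this way, and the other shares of all features on these scales were not computed. Past 2-fold there were 2 higher members, Zbtb33 and Zbtb20, and 1 lower member, Zfp385b, against 16.9% and 6.09% of all features and 9.73% and 5.34% of features with a symbol. The median difference of the members was 0.45, as was that of all features, with 0.41 over features with a symbol. When the median of 0.45 over all features was subtracted, 21 members were above it and 21 below, so that the excess of higher members is that of the whole table. The members ranged from a difference of -1.36 to 1.23. Their levels lay low in the table, with a median of 2.34 in siCon (range -1.16 to 6.34) and 2.73 in siH19 (range -2.52 to 6.93), and 31 of the 42 were below the siCon median of 3.30 for features with a symbol.

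**Figure D1:**
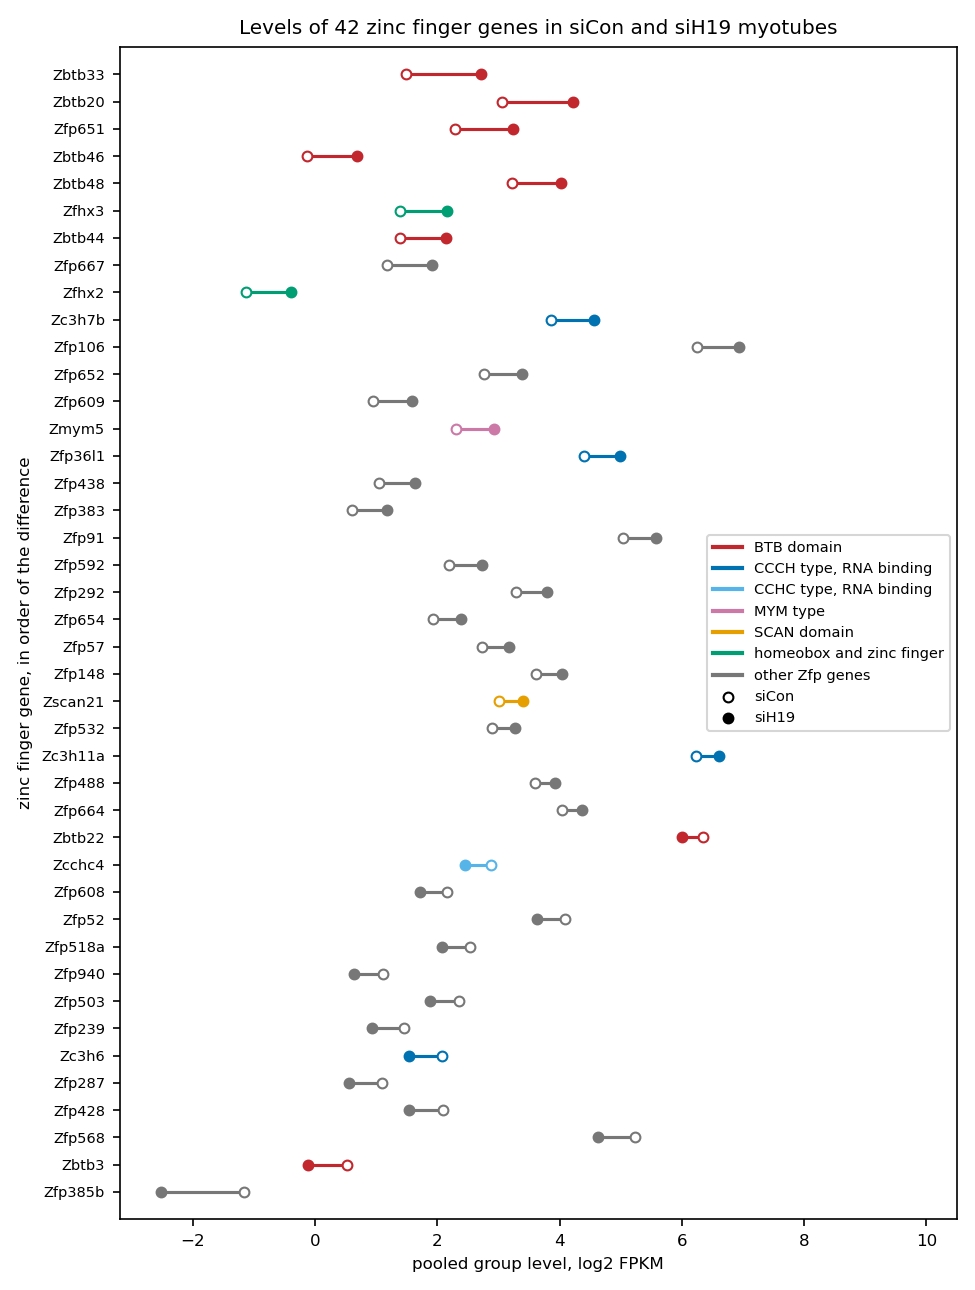
Pooled level of each zinc finger gene in log2 FPKM (horizontal axis) in siCon (open points) and siH19 (filled points), with genes in order of the difference and colours for the domain group. The 28 higher genes are in the upper rows and the 14 lower genes in the lower rows, and the longest lines belong to Zfp385b, Zbtb33 and Zbtb20.

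The genes of BTB proteins lay at both ends of the order. Of the 8 members with a BTB domain, 6 were higher and all 6 of these passed 1.5-fold, while Zbtb3, with the second lowest difference of all members, and Zbtb22 were lower. By that fold 37.4% of all features and 30.8% of those with a symbol were higher. After subtraction of the median of all features, 2 of the 6 still passed 1.5-fold, Zbtb33 at 0.78 and Zbtb20 at 0.71, whereas Zfp651 stood at 0.51, Zbtb46 at 0.36, Zbtb48 at 0.35 and Zbtb44 at 0.31. Zbtb3 at -1.09 and Zbtb22 at -0.79 then both passed it on the lower side, as every lower feature does on that scale. The median difference of the group was 0.81, beside 0.45 for all members, and without a pseudocount the 5 largest differences among higher members belonged to it. With a pseudocount of 1 FPKM, Zfp106 of another group (0.67) stood above Zbtb44 (0.59) and Zbtb46 (0.44). With 8 genes and no replicate values, the group cannot be tested against the other members.

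Zbtb33 encodes Kaiso, a protein that binds methylated CpG sites. It had 1.49 in siCon and 2.72 in siH19, the largest difference among higher members at 1.23, or 2.35-fold, and 130 features with a symbol exceeded it. Its feature (chromosome X, 38189793 to 38197046, plus strand) has the annotated ends of the gene and overlaps Tmem255a on the other strand. Zbtb20, a transcriptional repressor known from liver and brain, went from 3.05 to 4.21, a difference of 1.16. With a pseudocount of 1 FPKM, added before the logarithm, the order of these 2 genes was the other way, at 0.99 for Zbtb33 and 1.07 for Zbtb20. Its feature covers 768373 bp on chromosome 16 (42875902 to 43644274) and is shared with the microRNA gene Mir568, so that the value belongs to the locus. Zfp651, whose other name is Zbtb47, had 2.28 in siCon and 3.24 in siH19 (difference 0.96).

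Zbtb46 marks classical dendritic cells in the immune system. Here it lay below 1 FPKM in siCon, at -0.13, and at 0.68 in siH19 (difference 0.81, or 0.44 and thus short of 1.5-fold with a pseudocount of 1 FPKM). Zbtb48, which binds telomere repeats and limits telomere length, had 3.22 and 4.02 (difference 0.80) in a feature shared with Tas1r1, a taste receptor gene. Zbtb44 had 1.38 in siCon and 2.14 in siH19 (difference 0.76).

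The pair of lower BTB genes differed widely in level. Zbtb3 (chromosome 19, 8802496 to 8804854) had 0.52 in siCon and -0.12 in siH19, a difference of -0.64, or -0.34 with a pseudocount of 1 FPKM. Zbtb22 had the highest siCon level of all members, 6.34, and 6.00 in siH19. That feature also holds Rgl2 and Tapbp, the gene for the peptide-loading protein tapasin, so that no level can be given to Zbtb22 alone.

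Promoter sequence from RefSeq (GRCm38.p6, 250 bases before to 50 bases after a transcript start) matched 35 members with 45 promoters, and 7 members had no entry. CpG pairs were counted because one of the proteins, Kaiso, reads methylated CpG and because the study asks how H19 acts on DNA methylation. The stretches of 250 bases before the start are shown for the BTB genes with the largest higher and the larger lower difference and for Zbtb20, with each CpG in capitals.
Zbtb33, chrX:38189543-38189792, plus strand: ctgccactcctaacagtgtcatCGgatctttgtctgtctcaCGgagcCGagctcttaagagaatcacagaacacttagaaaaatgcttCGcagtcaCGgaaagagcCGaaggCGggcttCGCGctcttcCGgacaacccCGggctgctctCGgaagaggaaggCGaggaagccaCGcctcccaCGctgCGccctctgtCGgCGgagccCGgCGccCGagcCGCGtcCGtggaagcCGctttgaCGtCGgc
Zbtb20, chr16:43247034-43247283, plus strand: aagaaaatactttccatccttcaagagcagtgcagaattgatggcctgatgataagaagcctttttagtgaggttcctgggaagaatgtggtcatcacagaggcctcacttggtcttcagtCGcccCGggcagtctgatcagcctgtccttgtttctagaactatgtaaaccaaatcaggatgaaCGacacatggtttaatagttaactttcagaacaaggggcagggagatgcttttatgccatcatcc
Zbtb3, chr19:8802263-8802512, plus strand: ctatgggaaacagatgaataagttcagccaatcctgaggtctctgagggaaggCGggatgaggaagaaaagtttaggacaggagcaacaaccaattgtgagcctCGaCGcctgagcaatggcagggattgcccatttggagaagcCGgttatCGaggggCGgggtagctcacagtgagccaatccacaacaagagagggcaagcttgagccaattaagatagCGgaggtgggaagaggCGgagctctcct

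The Zbtb33 stretch holds 27 CpG, that of Zbtb20 3 and that of Zbtb3 8. The Zbtb20 start lies inside its feature and is only the start that the table gives, since the locus begins further upstream. For Zbtb3 a second RefSeq start was given nearby, whose stretch overlaps the printed one and holds 9 CpG. These counts are a description of sequence, and no methylation was measured in the values used here.

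Over the whole 300 bases, the median number of CpG in the 45 member promoters was 17, against 7 in all 32851 promoters of the table. The latter stand for 27025 genes and were not limited to protein-coding, expressed or listed ones, so that the sets are unlike. Promoters of higher members had a median of 20 and those of lower members 11.5, and the ranges overlapped (1 to 46 and 3 to 43). Genes with several starts weigh more in these medians, and with 1 start a gene, the nearest to its annotated start, they were 20 for 23 higher and 17.5 for 12 lower members, an alternative chosen after the data were seen. Within the BTB group, the number went from 46 in Zfp651 and 41 in Zbtb44 to 3 in Zbtb20 and 1 in Zbtb46, all of them higher in siH19. The starts of Zbtb20 and Zbtb46 lie inside the annotated genes, so that their numbers are not those of the annotated 5′ ends. A set of 4 short motifs was searched on both strands. The E-box CAGCTG, bound by myogenic factors, was found in 6 of 45 member promoters (13.3%) and in 16.3% of all promoters. The 6 were of higher members (Zfhx2, Zfp488, Zfp651, Zfp667 and a pair of Zfp57 starts), or 22.2% of their 27 promoters, against 0 of 18 of lower members. With so few promoters, a link to direction was not tested. The GC box GGGCGG was found in 40.0% against 35.7%, CCAAT in 35.6% against 37.4%, and TGCCGC in 17.8% against 11.6%. None of these motifs contains another.

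Both homeobox zinc finger genes were higher and passed 1.5-fold, as 62.8% and 37.4% of all features did. Zfhx3, also called ATBF1 and known as a repressor of the alpha-fetoprotein gene, had 1.38 in siCon and 2.15 in siH19. Its relative Zfhx2 had -1.13 and -0.40, below 1 FPKM in both groups. The differences were 0.77 and 0.73, and 0.59 and 0.27 with a pseudocount of 1 FPKM. These are also the members with the most C2H2 fingers by pattern, 21 in Zfhx3 and 16 in Zfhx2. The Zfhx2 feature overlaps its antisense gene Zfhx2os, and the Zfhx3 feature begins inside the annotated gene, 257966 bp of 1018987 bp.

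Of 4 RNA-binding CCCH genes 3 were higher in siH19, where 62.8% of all features were, and after centring 2 were above and 2 below the median of all features. Their levels in siCon were 2.07 to 6.23, with a median of 4.13 beside 2.34 for all members. Zfp36l1 binds AU-rich elements and recruits the deadenylase that starts mRNA decay. Its level was 4.39 in siCon and 4.99 in siH19 (difference 0.60). Zc3h7b had 3.86 and 4.56 (difference 0.70). Zc3h11a, which takes part in mRNA export, had the highest siCon level of the group, 6.23, and 6.61 in siH19. Its feature also holds Zbed6, a gene that lies in an intron of Zc3h11a and encodes a repressor of Igf2 in muscle, so that reads of both are in the value, and 62.6% of its windows of 76 bases, the read length, also occur in other annotated genes, chiefly Gm38394, which overlaps it. Zc3h6, with 2.07 in siCon and 1.53 in siH19, was the lower member, at -0.54, and thus 1.24 below Zc3h7b in difference. Zcchc4, a CCHC protein that methylates ribosomal RNA, was also lower (2.87 in siCon, 2.45 in siH19).

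**Figure D2:**
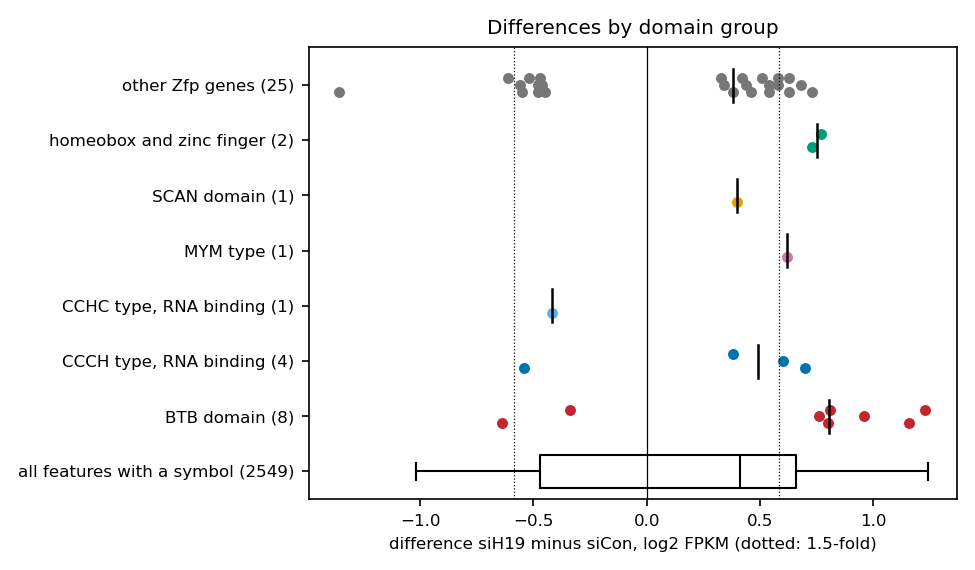
Difference siH19 minus siCon in log2 FPKM for each member by domain group (points, with a bar at the group median), above a box for the 2549 features with a symbol (quartiles, median and the range from the 5th to the 95th percentile). The 6 higher BTB genes lie right of the dotted line at 1.5-fold, while the other Zfp genes lie on both sides of 0.

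By symbol, single members stood for the MYM and SCAN types, and the proteins of the other Zfp genes were not searched for a SCAN domain. Zmym5 had 2.31 in siCon and 2.93 in siH19 (difference 0.62). Zscan21 had 3.0 and 3.40 (difference 0.40).

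The other 25 Zfp genes were divided, with 15 higher and 10 lower and a median difference of 0.38, where 62.8% of all features were higher. After centring 10 were above and 15 below the median of all features. Past 1.5-fold 4 were higher and 2 lower, against 37.4% and 16.9% of all features, and with a pseudocount of 1 FPKM 1 higher (Zfp106) and 1 lower gene (Zfp568) were left. Zfp106, an RNA-binding protein whose loss causes degeneration of motor neurons and muscle in mice, had the highest siCon level of this group. It had 6.25 in siCon and 6.93 in siH19 (difference 0.68), 121.9 FPKM in siH19 and the highest value of any member. Zfp667 had 1.18 and 1.91 (difference 0.73). Zfp652, a repressor with 7 fingers, had 2.76 and 3.39, and Zfp609 had 0.95 and 1.58, both with a difference of 0.63. Zfp383 and Zfp438 stood at 0.58 each and were not counted, 1.5-fold being 0.585. Rounding can move a difference by 0.01, so that they may lie on either side.

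On the lower side, Zfp385b had the lowest levels of all members and the only lower difference past 2-fold, at -1.36. It had -1.16 in siCon and -2.52 in siH19, or 0.448 and 0.174 FPKM, below 1 FPKM in both groups. The difference was -0.997 with a pseudocount of 0.1 FPKM and -0.30, short of 1.5-fold, with 1 FPKM. Zfp568, a KRAB protein that represses the placental transcript of Igf2 in the embryo, was by contrast well expressed, with 5.23 in siCon and 4.62 in siH19 (difference -0.61). These are 37.5 and 24.6 FPKM. Zfp428, Zfp287, Zfp239, Zfp503, Zfp940, Zfp518a, Zfp52 and Zfp608 followed, with differences of -0.56 to -0.45. Zfp503, also called Nolz1, is known from the developing striatum and limb. Zfp52 needs care, since its feature of 203554 bp exceeds the annotated 27063 bp and overlaps the coding genes Zfp53, Zfp948, Zfp983 and Gm10226, so that the value may hold reads of several relatives.

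The remaining higher members spanned 0.33 to 0.54. Zfp664, Zfp488, Zfp532, Zfp148, Zfp57, Zfp654 and Zfp292 lay at 0.33 to 0.51, and Zfp592 and Zfp91 at 0.54 each. Zfp57 maintains methylation at imprinted loci through Trim28 (difference 0.44), and its feature runs over the neighbouring Mog gene on the other strand. Zfp148, also called ZBP-89, binds GC-rich promoters (difference 0.42). Zfp91 is a ubiquitin ligase of the noncanonical NF-kB pathway and shares its feature with Cntf, a neurotrophic factor gene, and U05342.

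Relatives did not always lie on the same side. Zfp609 and Zfp608, a pair of paralogs, were at 0.63 and -0.45, a gap of 1.08. Zfp592 and Zfp532, which share a complex with Zfp687, were both higher at 0.54 and 0.38.

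**Figure D3:**
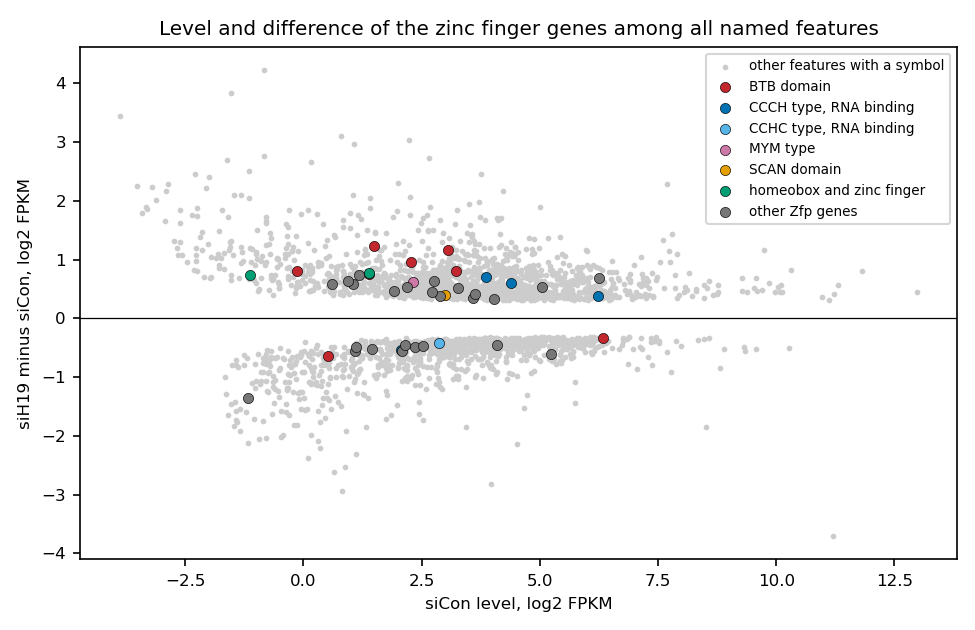
Difference siH19 minus siCon against the siCon level, both in log2 FPKM, for members (coloured by domain group) and other features with a symbol (grey). The empty band around 0 comes from the table holding only called features, and most members lie left of the siCon median of 3.30.

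The proteins were then described from the longest complete coding sequence in GENCODE M21. The 42 proteins had 189 residues (Zfp428) to 3723 residues (Zfhx3). The C2H2 pattern, a pair of cysteines 2 to 4 residues apart, 12 residues, and a pair of histidines 3 to 5 residues apart, was found in 36 members, with a median of 5.5 fingers. Higher and lower genes were found at high and low numbers of fingers. Of 12 members with 9 or more fingers, 8 were higher (median difference 0.45), and of 24 with 1 to 8 fingers 17 were higher (0.50), where 62.8% of all features were. After centring 6 of the 12 and 13 of the 24 were above the median of all features. Of 6 without the pattern 3 were higher. Those 6 include the CCCH, CCHC and MYM genes with no C2H2 match, and Zfp503.

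A pattern for the end of the KRAB A box was found in 6 members, all in the other Zfp genes. Of these 3 were higher, where 62.8% of all features were, and 3 lower. Zfp667, Zfp383 and Zfp57 had differences of 0.73, 0.58 and 0.44, and Zfp52, Zfp940 and Zfp568 differences of -0.46, -0.48 and -0.61. Genes with this pattern were also few in the table, and a KRAB domain that departs from it was not counted. Of 179 annotated protein-coding zinc finger genes with the pattern, 3.35% were listed, against 11.0% of 328 without it and 11.1% of all 21924 protein-coding genes. BTB genes were listed in 18.6% of cases (8 of 43) and CCCH genes in 17.4% (4 of 23). The highest share, 66.7%, belonged to the homeobox genes, with 2 of only 3. Genes outside the table were not analysed here, so that a share of listed genes depends on which genes were expressed and tested as well as on which differed.

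**Figure D4:**
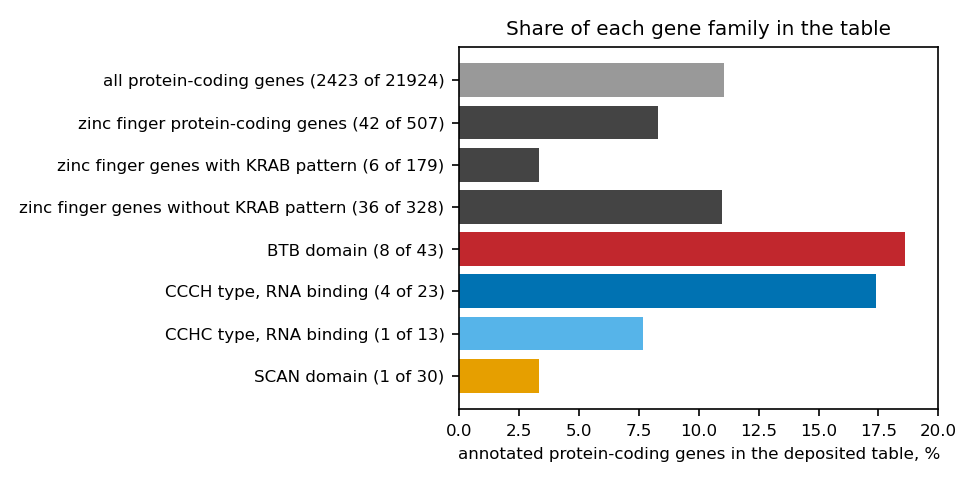
Percent of annotated protein-coding genes that occur in the deposited table, with counts in brackets, for all genes and the larger families, leaving out homeobox (2 of 3) and MYM genes (1 of 6). Bars start at 0. Of the families shown, BTB genes have the highest share at 18.6%. SCAN genes (by symbol) and KRAB genes (by pattern) have the lowest, at 3.33% and 3.35%.

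Members were spread over 17 chromosomes, with one cluster on chromosome 7. In the 185 kb from the start of Zfp940 (29843589 to 29853648) to the end of Zfp568 (29983955 to 30028282), 6 coding genes are annotated, all of them zinc finger genes, and 3 are listed. Zfp940 and Zfp568 were lower and Zfp383 (29908370 to 29916813), which lies between them, was higher. Zfp383 had 0.60 in siCon and 1.18 in siH19, while Zfp940 had 1.11 and 0.63. A feature without a symbol (29970589 to 29983765) ends 189 bp before Zfp568 and had -0.64 and 0.19 (difference 0.83). Direction was therefore not shared across the cluster, and Zfp420, Zfp27 and Zfp74 were not listed.

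**Figure D5:**
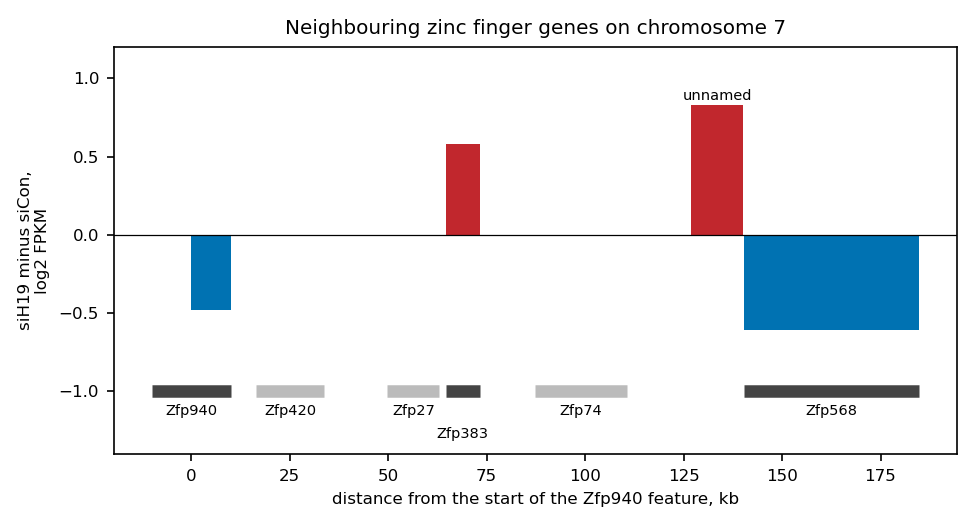
Bars give the difference siH19 minus siCon in log2 FPKM of the 4 listed features, drawn to scale along the distance in kb from the start of the Zfp940 feature. The blocks at the foot are the 6 annotated zinc finger genes (dark where listed), and the bars of Zfp383 and the unnamed feature point up while those of Zfp940 and Zfp568 point down.

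Within 10 kb, 6 members had another listed feature, 3 in the same and 3 in the opposite direction. Zfp106 was followed after 1758 bp by Capn3, the muscle calpain gene, which had 2.52 in siCon and 4.23 in siH19 (difference 1.71). Zbtb20 lay near Tigit, an immune receptor gene (difference 1.10), and Zfp292 near a feature without a symbol (1.04). In the opposite direction, Zbtb3 was 3921 bp from Hnrnpul2, the gene of an RNA-binding protein (difference 0.90), and Zfp664 was 483 bp from Ccdc92 (difference -0.71). The sixth was Zfp568 with the unnamed feature of the cluster. In all, the features of 11 members overlap another annotated coding gene and those of 19 overlap a gene on the other strand. The libraries were stranded, but whether the counting used strand was not given in the sources used here.

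Genes of proteins that work with zinc finger proteins were looked up from 4 lists. Of 16 genes of corepressors of BTB proteins and of BTB repressors that recruit them, 3 were listed and all 3 were higher. Cul3, the ligase scaffold, had 5.49 in siCon and 6.43 in siH19 (difference 0.94). Bcorl1, a corepressor, and Bcl6, itself a BTB zinc finger repressor, had smaller differences of 0.57 and 0.53. The median of 0.57 stands beside 0.41 for features with a symbol, and 62.8% of all features were higher. Of 20 KRAB silencing partners only Morc3 (4.30 in siCon, 5.05 in siH19) and Chd3 (difference 0.37) were listed, both higher, and neither Trim28 nor Setdb1 was listed.

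Among 30 genes of RNA decay and tailing, which CCCH proteins such as Zfp36l1 engage, 9 were listed, 7 higher and 2 lower, with a median of 0.59, and 5 were higher past 1.5-fold. Over all features 62.8% were higher and 37.4% passed that fold. The higher genes included subunits of the CCR4-NOT deadenylase. Cnot6 had 3.99 and 4.68 (difference 0.69), Cnot7 had 4.55 and 5.14 (0.59), and Cnot3 had 1.95 and 2.67 (0.72). Tob1, which links RNA-binding proteins to the deadenylase, had 4.80 and 5.57 (0.77), whereas its relative Tob2 was lower by a difference of -0.34. Rc3h2, a roquin that acts on stem loops, had 3.99 and 4.81 (0.82).

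Of 119 C2H2 factors with other names 19 were listed, 14 higher and 5 lower, at a median of 0.43, where 62.8% of all features were higher. Egr3, a growth-response factor needed for muscle spindles, had 3.61 in siCon and 4.77 in siH19 (difference 1.16), and the Kruppel-like genes Klf5 and Klf4 had 5.21 and 6.10, and 4.25 and 5.00. Zeb1, a repressor of E-cadherin and of myogenic genes, had 4.80 and 5.45. Casz1 had 2.17 and 2.82, Zhx2 had 3.08 and 3.71, and Klf12 had -0.52 and 0.07. Lower by 1.5-fold were Sp6, with 1.02 and 0.15, and Prdm8, with -0.41 and -1.11. Once the median of all features was subtracted, 8 of the 19 were above it and 11 below.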

How the data were processed

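RNA-seq was measured in 6 libraries, 3 of siCon and 3 of siH19 myotubes. Libraries were made from rRNA-depleted total RNA with a stranded kit and read from both ends over 76 bases. Alignment to mm10 was done by the authors in the TopHat app 1.0.0 (the submitters' processing notes also name TopHat2 2.0.7), and groups were compared with Cuffdiff 2.1.1. The authors deposited log2 FPKM values, 1 per group, each rounded to 2 decimals and estimated over 3 libraries together, so that a difference of such values can be off by 0.01. The deposited table also holds the authors' fold change, a q value, a status and a call, which were not used.

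Differences, counts and medians were computed with Python 3.11.15, numpy 2.4.6 and pandas 2.3.3 (figures with matplotlib 3.10.9), and tested on simulated data. No test, interval or depth could be had from pooled values. The members and gene lists were chosen with earlier results of these data known. A partner gene of the lists is not reported here and was left out of their counts. The domain groups follow gene symbols, except that Zfp651 (Zbtb47) was placed with the BTB and Zfp36l1 with the CCCH genes by the known domain. Finger and KRAB patterns were counted in proteins translated from GENCODE M21, and promoters were those of RefSeq (GRCm38.p6). Locus starts were taken as counted from 0, because 484 of 2328 features with a symbol annotated once start 1 base before the annotated start and 65 at it. Values are named for every member past 1.5-fold and for those with the highest and lowest siCon level of a group, and other genes by lists, shared features or position. Alternatives were other fold cut-offs, a filter at a log2 FPKM of 0, pseudocounts of 1 and 0.1 FPKM, centring on the median of all features, and features with a single symbol.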

Additional observations from a re-analysis of the deposited data

How the results depend on the processing

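No paired analysis was possible because the table gives 1 pooled value per group, and for the same reason no library could be left out and the spread between replicates stays unknown. Past 1.5-fold, 15 members were higher and 3 lower. Both without a cut-off and at the smallest one tried, below 1.5-fold, these were 28 and 14, at 2-fold 2 and 1, with a pseudocount of 1 FPKM 8 and 1, and after centring on the median of all features 2 and 14. The median member difference of 0.45 became 0.38 with the pseudocount of 1 FPKM and 0.00 after centring. Centring turned the sign of 7 members, Zfp664 (-0.12), Zfp488 (-0.11), Zc3h11a (-0.07), Zfp532 (-0.07), Zscan21 (-0.05), Zfp148 (-0.03) and Zfp57 (-0.01). A pseudocount cannot turn a sign, because the same amount is added to both groups. A cut-off at 1.5-fold left 4 higher and 2 lower of the other Zfp genes, 1 lower BTB gene, no lower CCCH gene (0), no lower gene (0) of the SCAN, CCHC, MYM and homeobox types together, 1 higher gene of the list of BTB corepressors, 7 higher and 2 lower C2H2 factors with other names, 1 higher KRAB partner and no lower RNA decay partner (0). Centring gave 2 lower CCCH genes, 2 lower genes of the SCAN, CCHC, MYM and homeobox types, 8 higher and 11 lower C2H2 factors, and 1 higher and 1 lower KRAB partner. Without features of several symbols 4 higher and 1 lower BTB genes were left. After centring all 6 higher BTB genes were above the median, as any feature higher by 1.5-fold must be, but 2 rather than 6 passed 1.5-fold. Both lower BTB genes then passed it on the lower side, as every lower feature does. With a pseudocount of 1 FPKM 5 higher BTB genes passed. Genes below 1 FPKM, Zfp385b, Zfhx2 and Zbtb46 in siCon, rest on the least signal, and the depth behind them is unknown. With 1 promoter start a gene, chosen after the data were seen, the median CpG number of lower members went from 11.5 to 17.5 and that of higher members stayed at 20.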
